A study of Mus musculus with 27 samples.

Results

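The genes described here are the mouse replication-dependent histone genes, chosen by symbol in the probe annotation: H1f1 to H1f5, and H2ac, H2bc, H3c or H4c followed by a number. The rule found 55 genes, read by 84 probes, of 19057 named genes and 45281 probes on the array. They comprised 5 genes for the linker histone H1, 16 for H2A, 13 for H2B, 9 for H3 and 12 for H4. All 55 matched a mouse RefSeq gene (assembly GRCm38.p6), 46 of them on chromosome 13 and 9 on chromosome 3. Probes of near-identical histone genes can bind each other's transcripts, and without probe sequences this was not tested, so single-gene values are those of a probe rather than certainly of 1 gene.

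Replication-dependent histone genes are switched on when DNA is copied and supply the core histones that wrap new DNA, with H1 binding the linker between nucleosomes. Most of their transcripts end in a stem-loop in place of a poly(A) tail, while polyadenylated forms occur in cells that have left the cycle. Bone marrow divides rapidly, whereas most cells of adult liver and brain do not. The labelling kit named in the labels primes on poly(A) tails, and which form of a histone transcript each probe read was not tested.

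The series asked how loss of Mysm1, an enzyme that removes ubiquitin from histone H2A, alters transcript levels. Liver, brain and bone marrow were taken from C57BL/6 mice that were wild type, heterozygous (Mysm1+/tm1a) or homozygous (Mysm1tma1/tm1a, as the labels spell it). The allele is Mysm1tm1a(KOMP)WTSI, and the labels name no Cre or tissue-specific promoter. Each of the 9 groups had 3 arrays, 27 in all, and the design text counts animals within each tissue group.

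The shares of promoters with 3 motifs differed between histone types, as given below. As examples, 4 RefSeq windows (GRCm38.p6, 250 bases before to 50 after the annotated start) are shown. Windows existed for 50 of the 55 genes; H4c14, H3c1 and H3c7, described below, were not among them. For each type other than H1 the window is that of the gene with the highest level in wild-type marrow, among genes with 1 window and, for H2A and H2B, with the octamer. Capitals mark 3 motifs searched on both strands: the octamer ATTTGCAT bound by Oct1, the CCAAT box (CCAAT) and the TATA box (TATAAA). No letter in these 4 windows belongs to more than 1 match. All 4 hold CCAAT and TATAAA, so they do not show the differences between types in those motifs. The octamer in the H2A and H2B windows follows from the choice of windows. In the H4c1 window TATAAA lies after the annotated start.
H2ac20 (chr3:96220831-96221130, - strand): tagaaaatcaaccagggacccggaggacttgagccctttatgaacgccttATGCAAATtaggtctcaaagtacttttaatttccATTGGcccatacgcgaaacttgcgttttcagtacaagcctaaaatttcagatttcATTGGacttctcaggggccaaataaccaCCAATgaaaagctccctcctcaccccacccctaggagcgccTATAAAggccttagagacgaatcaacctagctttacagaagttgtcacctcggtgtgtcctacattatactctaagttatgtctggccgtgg
H2bc12 (chr13:22035571-22035870, + strand): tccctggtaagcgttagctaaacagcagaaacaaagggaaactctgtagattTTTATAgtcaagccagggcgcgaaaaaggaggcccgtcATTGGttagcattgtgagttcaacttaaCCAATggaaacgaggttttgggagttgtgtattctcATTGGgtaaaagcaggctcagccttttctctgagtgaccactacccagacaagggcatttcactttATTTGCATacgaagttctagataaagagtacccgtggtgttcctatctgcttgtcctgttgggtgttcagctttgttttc
H3c10 (chr13:21717378-21717677, + strand): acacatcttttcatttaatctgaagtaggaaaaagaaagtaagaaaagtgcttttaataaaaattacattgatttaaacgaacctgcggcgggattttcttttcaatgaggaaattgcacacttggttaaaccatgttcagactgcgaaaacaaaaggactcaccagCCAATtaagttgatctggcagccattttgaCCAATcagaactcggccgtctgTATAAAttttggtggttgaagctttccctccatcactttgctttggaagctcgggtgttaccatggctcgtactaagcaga
H4c1 (chr13:23761200-23761499, - strand): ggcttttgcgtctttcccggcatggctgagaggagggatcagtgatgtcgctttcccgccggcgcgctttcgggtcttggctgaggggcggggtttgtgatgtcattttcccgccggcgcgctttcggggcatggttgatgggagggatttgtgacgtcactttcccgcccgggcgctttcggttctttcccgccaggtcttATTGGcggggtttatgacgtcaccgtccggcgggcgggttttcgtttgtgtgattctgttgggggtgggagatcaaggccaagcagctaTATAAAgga

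The octamer was found in 26% of the 50 windows, against 1.97% of the 27025 genes in the table. It lay in 63.6% of H2B windows and 37.5% of H2A windows, and in 0 of the 5 H1, 7 H3 and 11 H4 windows. CCAAT was found in 84% of the histone windows and 41.1% of all, and TATAAA in 62% and 15.7%. Every H1, H2A, H2B and H3 window held CCAAT, but only 27.3% of the H4 windows did, and TATAAA was in 28.6% of H3 windows and 72.7% of H4 windows. These are matches of letters and not measured binding sites.

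Transcript levels are log2 intensities after background correction and quantile normalisation, where 1 unit is a doubling of intensity. A gene was measured in a tissue when 3 or more of that tissue's 9 arrays gave its probe a detection p under 0.05, a comparison with negative control beads. Where a gene had several such probes, the brightest on average was used. By that filter 51 of the 55 genes were measured in marrow, 40 in liver and 39 in brain, and 37 in all 3 tissues. The 9 genes that passed in marrow alone were not detected well enough elsewhere, and H1f4, H2ac1, H2bc1 and H2bc8 passed in no tissue. By type, marrow measured 4 H1, 15 H2A, 11 H2B, 9 H3 and 12 H4 genes, liver 2, 12, 9, 6 and 11, and brain 2, 13, 9, 6 and 9. Brightness depends on the probe, so levels are compared between groups for the same gene and not between genes.

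Before genotypes are compared, the arrays need describing. Marrow arrays were dim, with a mean raw signal of 92.1 to 228 and 20.0% to 35.4% of probes detected, against 282 to 361 and 32.7% to 36.2% in liver and 285 to 373 and 43.3% to 44.4% in brain. Mysm1, the targeted gene, read 7.57, 7.59 and 7.29 in wild-type liver, 6.48, 6.64 and 6.54 in heterozygous liver and 5.20, 4.49 and 4.72 in homozygous liver. In marrow it read 6.18, 6.29 and 6.40 in wild type and 6.48, 4.88 and 6.95 on the arrays labelled homozygous. Mysm1 thus followed the labels in liver, and in marrow 2 of the 3 arrays labelled homozygous (replicates 1 and 3) lay above all wild-type arrays. Marrow homozygous replicate 2 also carried hepatocyte transcripts: Apoa2 read 11.45 there and 4.29 to 4.52 on the other 8 marrow arrays, Apoa1 10.19 against 4.38 to 4.93. Counts and medians of the histone genes in this group are therefore given with and without that array, and other gene lists by array. The name homozygous for these marrow arrays is their label. BeadChip followed group: wild-type and heterozygous livers shared 1 chip and homozygous livers lay on another, and the same held in marrow, so in both tissues the homozygous genotype and the chip cannot be told apart. In brain the wild-type arrays lay on 1 chip and both mutant groups on another, and each tissue used its own chips apart from 1 that held homozygous livers and wild-type brains.

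Wild-type marrow carried far more histone transcript than wild-type liver or brain, on a scale normalised over all 27 arrays. Of the 51 genes in the joint fit, 43 were higher in marrow than in liver and 2 were lower, against 25.8% and 22.5% of all 16818 features (48.3% in either direction). The median difference was 3.23 log2 units, and 0.07 over all features. With arrays normalised within each tissue it was 1.54, against -0.46 over all features. Against brain, 49 of 51 were higher and 0 lower (28.0% of all features were higher, 58.4% in either direction), with a median of 3.91, or 1.75 with normalisation within tissues (all features -1.32). Among the 37 genes measured in all 3 tissues, 31 were higher and 2 lower than in liver, and 37 of 37 higher than in brain. In bulk tissue, more cells making a transcript and more transcript per cell cannot be told apart.

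On this joint scale the difference was graded by type, and the medians by type are given on it alone. The median marrow-minus-liver difference was 4.84 for 15 H2A genes, 3.58 for 9 H3 genes, 3.51 for 12 H4 genes, 1.06 for 11 H2B genes and 0.54 for 4 H1 genes. All 9 H3 and all 12 H4 genes were called higher in marrow, but 9 of the 43 genes called higher than in liver had not passed the liver filter. Over genes measured in all 3 tissues the medians were 5.04 for 11 H2A genes, 3.97 for 6 H3 genes, 3.87 for 9 H4 genes, 1.96 for 2 H1 genes and 0.73 for 9 H2B genes. Against brain the medians over these same genes were 4.75, 5.01, 4.43, 3.03 and 2.58 in the same order. The differences between types were not tested.

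H2ac11, an H2A gene, read 11.25, 11.36 and 11.56 in wild-type marrow and 4.70, 4.44 and 4.58 in wild-type liver, where it was undetected on all 3 arrays. The marrow arrays stood apart from every liver array, at least 82.0-fold higher (difference 6.82 ± 0.16, SE, limma adjusted p = 6.5e-19). H2ac22, another H2A gene, read 13.71, 13.46 and 13.80 in marrow and 7.05, 6.95 and 6.91 in liver, a difference of 6.69 ± 0.22 (limma adjusted p = 9.5e-17). The same order held for H2ac20, H2ac13 and H2ac7, with differences of 4.84 ± 0.16, 4.49 ± 0.14 and 5.65 ± 0.20 (limma adjusted p = 7.7e-17, 2.8e-17 and 2.8e-16). Against brain the 5 smallest p-values belonged to H2ac11 (6.74 ± 0.16), H2ac13 (4.67 ± 0.14), H2ac10 (4.20 ± 0.14), H2ac20 (4.68 ± 0.16) and H2ac21 (at least 66.1-fold). All 5 code for H2A.

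Only 2 genes were called lower in marrow than in liver on the joint scale, 1 H2A and 1 H2B gene. H2ac18 read 8.82, 9.08 and 8.83 in marrow and 10.01, 10.26 and 10.43 in liver, so that every marrow array lay below every liver array (difference -1.33 ± 0.17, limma adjusted p = 8.2e-07). H2bc4 was lower in marrow by a smaller amount (-0.77 ± 0.22, limma adjusted p = 0.0056). Both were higher in marrow than in brain, by 1.19 ± 0.17 and 1.08 ± 0.22. With arrays normalised within each tissue the median over the histone genes stayed positive (1.54), but more genes had a lower mean in marrow than in liver. Among them were H1f2 (9.26 against 11.85), H2ac19 (9.48 against 11.60), H2bc6 (10.27 against 12.11) and H2bc9 (10.07 against 11.61).

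For the gene of each remaining type with the highest level, H2bc7 read 12.30, 12.49 and 12.50 in marrow, 11.93, 11.84 and 11.98 in liver and 10.20, 10.11 and 10.29 in brain. On this joint scale it exceeded liver by 0.52 ± 0.17 (limma adjusted p = 0.015) and brain by 2.23 ± 0.17 (1.5e-10). With arrays normalised within each tissue, wild-type H2bc7 means were 10.87 in marrow, 12.41 in liver and 10.79 in brain. Marrow then lay below liver, so the direction for H2bc7 depended on the normalisation. On the joint scale H3c10 was 3.58 ± 0.23 above liver and H4c1 3.87 ± 0.26 above liver (limma adjusted p = 9.3e-12 and 1.7e-11). H1f2, a linker histone gene, read 11.30, 11.30 and 11.05 in marrow and 11.82, 11.29 and 11.06 in liver, and these groups overlapped (difference -0.17 ± 0.18, limma adjusted p = 0.49).

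**Figure D1:**
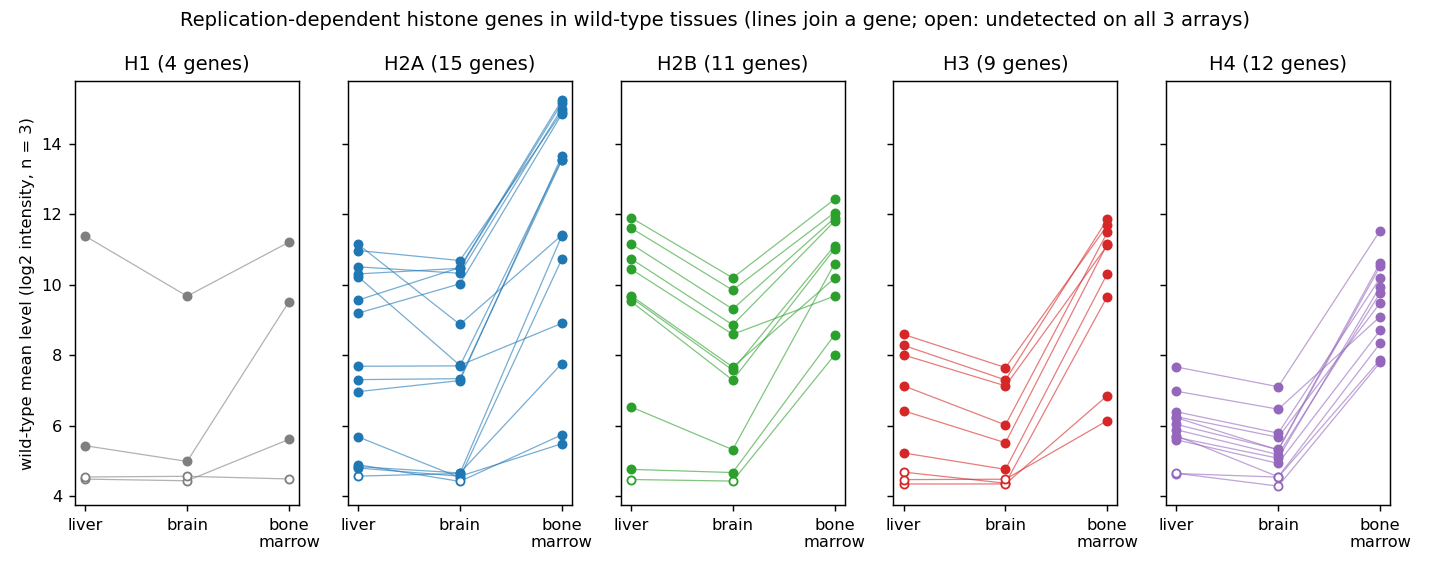
Mean level (log2 intensity, n = 3 arrays) of each of the 51 jointly measured histone genes in wild-type liver, brain and bone marrow, 1 panel per histone type, with lines joining a gene and open circles where it was undetected on all 3 arrays. On the scale normalised over all arrays, H2A, H3 and H4 genes climb towards marrow. Their median differences from liver are 4.84, 3.58 and 3.51, while H2B genes differ less (1.06).

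In heterozygous liver nearly every measured histone gene was slightly above wild type, and H2B genes were the most even. Of 40 genes, 39 had a positive log2 change, with a median of 0.26 against 0.00 over all 11745 features. None passed the threshold (limma, Benjamini-Hochberg over all features, adjusted p below 0.05), as was true of every feature in this comparison (0% called). At an unadjusted p under 0.05 there were 14 of the 40, against 7.20% of all features, and in 13 the 3 heterozygous arrays lay above all 3 wild-type arrays, against 5.24% of all features. These 6 livers shared 1 chip.

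By type, the median change in heterozygous liver was 0.38 for 9 H2B genes, 0.45 for 11 H4 genes, 0.26 for 12 H2A genes, 0.18 for 6 H3 genes and 0.05 for 2 H1 genes. In 8 of the 9 H2B genes the groups did not overlap. H2bc12 read 9.71, 9.64 and 9.86 in wild type and 10.18, 10.24 and 10.14 in heterozygous liver, with no overlap (0.45 ± 0.10, SE, limma adjusted p = 0.35). H2bc7 read 12.43, 12.33 and 12.47 in wild type and 12.79, 12.72 and 12.85 in heterozygotes, again apart (0.38 ± 0.10, limma adjusted p = 0.41). H2bc6 read 12.14, 12.01 and 12.19 against 12.43, 12.44 and 12.59, a difference of 0.38 ± 0.10 (limma adjusted p = 0.41). All 3 differences were under 0.5 log2 units and larger than the spread within either group.

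The H4 genes behaved otherwise, because heterozygous liver replicate 2 stood far above the other arrays. Its H4 median lay 1.14 above the wild-type mean, while replicates 1 and 3 lay at 0.23 and 0.03. H4c4 read 5.15, 6.64 and 4.71 in heterozygous liver and 5.24, 5.28 and 5.56 in wild type, so the other heterozygous arrays were below wild type. H4c8 read 7.38, 8.15 and 7.57 in heterozygotes and 6.75, 6.65 and 7.25 in wild type, and here all 3 lay above (0.82 ± 0.23, limma adjusted p = 0.43). For H2B the same 3 arrays were at 0.33, 0.33 and 0.44, so no single array stood out. Without heterozygous replicate 2, the median over all measured histone genes was 0.18, the lowest among the 6 values with 1 array left out. On that array the erythroid marker median was 0.63 above wild type, against 0.17 and -0.10 on the other heterozygous arrays, and its part in the H4 values was not tested.

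In homozygous liver most histone genes had a slightly higher mean than in wild type, the H3 genes excepted. Of the 40 genes, 32 had a positive change, with a median of 0.16 against 0.00 over all features. 1 gene passed the threshold, against 1.42% of all features (0.664% higher and 0.758% lower), and 4 of 40 had an unadjusted p under 0.05, against 17.3%. All 11 H4 genes were positive (median 0.50), as were 11 of 12 H2A genes (0.17) and 8 of 9 H2B genes (0.13). Of the 6 H3 genes, 5 were negative (median -0.15), and the 2 H1 genes split. The difference between types was not tested.

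H4c14, an H4 gene on chromosome 3, was the gene that passed. It read 4.52, 4.72 and 4.62 in wild-type liver, 4.59, 4.97 and 4.65 in heterozygous liver and 5.38, 5.26 and 5.33 in homozygous liver. The homozygous arrays lay above all others (0.70 ± 0.12, SE, limma adjusted p = 0.025), and as wild type was undetected on all 3 arrays, the rise is at least 1.36-fold. It passed the detection filter through the homozygous group, so a difference was built into its inclusion. Leaving out any 1 of the 6 arrays kept the change between 0.63 and 0.75 and ended the call in each of the 6 cases. The call was also lost with a replicate block, with no background correction and with probes detected on every array.

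The next largest positive changes were in H4c4 (0.63 ± 0.41, limma adjusted p = 0.47) and H4c8 (0.56 ± 0.23, limma adjusted p = 0.26). H4c8 read 7.66, 7.12 and 7.54 in homozygotes, overlapping the wild-type array at 7.25. The lowest values were those of H2bc21 (-0.35 ± 0.20), H3c10 (-0.33 ± 0.14) and H3c13 (-0.22 ± 0.14), with limma adjusted p = 0.41, 0.27 and 0.44. H3c10 read 8.02, 7.92 and 8.07 in homozygotes against 8.53, 8.21 and 8.25 in wild type, without overlap. Erythroid and neutrophil markers were also above wild type on homozygous liver arrays: 4 of 4 measured erythroid markers were positive (median 0.44, Alas2 called at 1.55 ± 0.26, limma adjusted p = 0.022) and 3 of 3 neutrophil markers (median 1.00, 0 called). Their part in the histone values was not tested.

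Set against heterozygotes, homozygous liver was lower for 33 of 40 genes (median -0.16, against 0.00 over all features), with 0 called by limma (0.690% of all features were) and 6 at an unadjusted p under 0.05, against 13.4% of all features. With arrays scaled by their medians in place of quantiles the member median was 0.05 while that of all features was 0.16. All 9 H2B and all 6 H3 genes were negative, with medians of -0.25 and -0.28, and 11 of the 40 genes had every homozygous array below every heterozygous one, against 10.3% of all features. H2bc6 (-0.33 ± 0.10, limma adjusted p = 0.20) and H2bc12 (-0.32 ± 0.10, limma adjusted p = 0.21) had among the smallest p-values, with every homozygous array below every heterozygous one. H4c14 went the other way, at 0.58 ± 0.12 (limma adjusted p = 0.074).

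**Figure D2:**
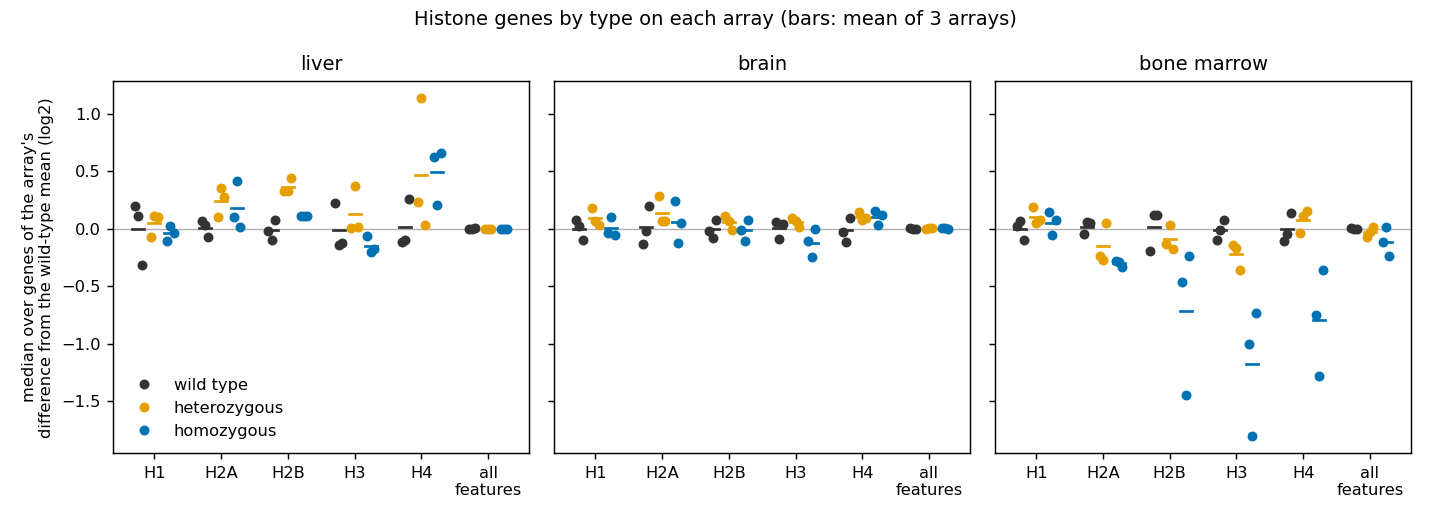
For each array, the median over the measured genes of a histone type of that array's difference from the wild-type mean (log2), in liver, brain and bone marrow; points are arrays, coloured by genotype, and bars are means of 3 arrays. In marrow the 3 arrays labelled homozygous lie at -1.0, -1.81 and -0.73 for H3, and in liver heterozygous replicate 2 lies at 1.14 for H4.

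In marrow labelled homozygous, every measured H2B, H3 and H4 gene had a lower mean than in wild type, most of all the H3 genes, while H1 genes split. Of the 51 measured genes, 47 had a negative change, with a median of -0.66 against -0.12 over all 11507 features. By limma 3 genes fell and 0 rose, against 1.10% of all features called (0.826% lower). At an unadjusted p under 0.05 there were 25 of 51, against 27.1% of all features, and 24 had all 3 homozygous arrays below all wild-type arrays, against 19.6% of all features. The type medians were -0.98 for H3, -0.74 for H4, -0.66 for H2B, -0.46 for H2A and 0.08 for H1. In all 9 H3 genes the groups did not overlap. Of these, H3c3 and H3c8 were detected on 3 wild-type arrays and 0 labelled homozygous. They passed the filter through wild type, so their lower values were built into their inclusion.

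H4c14 was the clearest case. It read 6.19, 5.99 and 6.32 in wild-type marrow, 5.97, 5.85 and 6.54 in heterozygous marrow and 4.57, 4.73 and 4.46 in marrow labelled homozygous. All 3 homozygous arrays lay far below the other 6, 1 of them still above the detection limit (-1.58 ± 0.23, SE, limma adjusted p = 0.017). The same gene rose in homozygous liver. H3c1, an H3 gene, read 7.57, 7.73 and 7.95 in wild type and 6.01, 5.61 and 6.82 in marrow labelled homozygous, with no overlap (-1.60 ± 0.29, limma adjusted p = 0.037). H3c7, also H3, read 8.17, 8.28 and 8.59 against 7.08, 6.37 and 7.46 (-1.38 ± 0.28, limma adjusted p = 0.048). A second H3c7 probe that passed the filter gave 0.40, so the fall belongs to 1 probe.

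These 3 calls depended on single arrays and on the fit. Except without homozygous replicate 2, the counts below come without the share of all features called, so they show only how the calls moved. With arrays scaled by their medians the histone median was -2.10, against -0.89 over all features, and 32 genes were called, as with array weights. With a replicate block, or with only the compared groups in the fit, 0 were called. Leaving out any 1 wild-type array or homozygous replicate 1 left 0 of the histone genes called, without homozygous replicate 3 there were 7, and without homozygous replicate 2, the array with hepatocyte transcripts, there were 20. The median without replicate 2 was -0.42, against -0.19 over all features, with 46 of 49 genes negative. That fit called 18 histone genes lower and 2 higher, but also 32.6% of all features. H3 genes then had a median of -0.71 with 7 of 9 lower, H4 genes -0.53 with 5 of 12 lower, H2B genes -0.29 with 3 of 11 lower, H2A genes -0.24 with 3 of 14 lower, and H1 genes -0.12 with 0 lower. The 7 H3 genes included H3c3 and H3c8, which passed the filter through wild type. H4c14, H3c1 and H3c7 were at -1.64 ± 0.24, -1.34 ± 0.26 and -1.08 ± 0.22 in that fit. Replicate 2 was the lowest homozygous array for H2B, H3 and H4 (medians of -1.45, -1.81 and -1.28 from the wild-type mean), while replicate 3 was the highest of the 3 (-0.24, -0.73 and -0.36).

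Cell markers on the same arrays differed from list to list. B lineage markers were lower on all 3 arrays labelled homozygous (medians of -2.44, -2.39 and -2.43 from the wild-type mean over 4 genes, 2 called: Cd79b -3.50 ± 0.32 and Igll1 -2.86 ± 0.46, limma adjusted p = 0.0016 and 0.024). Their mean level ran from 6.09 to 7.27 in wild type and from 4.68 to 4.75 in homozygotes. Erythroid markers lay at -0.06, -1.46 and -0.03, lowest on replicate 2. Neutrophil markers lay at 0.33, 0.78 and 0.23 over 7 genes, with 0 called and 0 at an unadjusted p under 0.05. The 2 measured hepatocyte markers had a mean level of 5.81 to 6.12 in wild type and 5.99 to 9.87 in homozygotes; Alb was undetected on all 9 marrow arrays, but its probe was detected on only 1 of 9 liver arrays. The part of these markers in the histone values was not tested.

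The genes at the upper end of the marrow changes were H2ac6 (0.88 ± 0.42, limma adjusted p = 0.20), H1f2 (0.37 ± 0.26, limma adjusted p = 0.36) and H1f3 (0.23 ± 0.21, limma adjusted p = 0.49). H1f3 was detected on 0 wild-type marrow arrays and passed the filter through the other groups, so a higher value was built into its inclusion. H1f2 read 10.07, 9.11 and 9.71 in marrow labelled homozygous against 9.35, 9.35 and 9.07 in wild type. H2ac6 read 5.66, 4.70 and 6.58 against 4.78, 4.54 and 4.98. In both genes replicate 2 was the low array, and without it both were called higher, at 0.63 ± 0.21 and 1.34 ± 0.33. The brightest H2A genes sat at the top of the marrow scale: H2ac24 held ranks 6 to 14 of all probes on the 9 arrays, where quantile normalisation gave several arrays the same value (15.21 on 2 wild-type arrays and 1 heterozygous array).

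In heterozygous marrow no histone gene passed the threshold. The median change of the 51 genes was -0.09 (-0.03 over all features), with 33 negative, 0 called by limma (0% of all features were) and 2 at an unadjusted p under 0.05, against 9.39%. H3c3 read 4.48, 4.68 and 4.83 against 5.38, 5.38 and 5.47 in wild type, without overlap (-0.75 ± 0.19, limma adjusted p = 0.51). It was detected on 3 wild-type and 1 heterozygous array and on 0 labelled homozygous, so it passed the filter through wild type and its lower values elsewhere were built into its inclusion. H1f3 (0.51 ± 0.21) and H3c8 (-0.43 ± 0.20) came next, with limma adjusted p = 0.53 and 0.54. H3c8 was likewise detected in wild-type marrow alone. H1f3 was detected on 0 wild-type arrays, 2 heterozygous arrays and 1 labelled homozygous. It passed the filter through those groups, so its higher values there were built into its inclusion. With arrays scaled by their medians the histone median was -1.43, against -0.88 over all features. Array weights called 3 genes (share of all features not given). All 9 H3 genes were negative (median -0.23) and 9 of 12 H4 genes were positive (median 0.04).

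Marrow labelled homozygous was also below heterozygous marrow, with 46 of 51 genes negative and a median of -0.58 against -0.05 over all features. Only H4c14 fell (-1.53 ± 0.23, limma adjusted p = 0.018), against 0.669% of all features called. H4 genes had the most unadjusted p-values under 0.05, 11 of 12, with a median of -0.83 (-0.54 without homozygous replicate 2). Over all types there were 22 of 51, against 14.9% of all features. Leaving out homozygous replicate 2 gave a median of -0.33 and 6 genes called, against 14.5% of all features. Without homozygous replicate 3 there were 5 called, and without homozygous replicate 1, heterozygous replicate 1 or heterozygous replicate 3 there were 0. For these counts the share of all features called is not given.

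**Figure D3:**
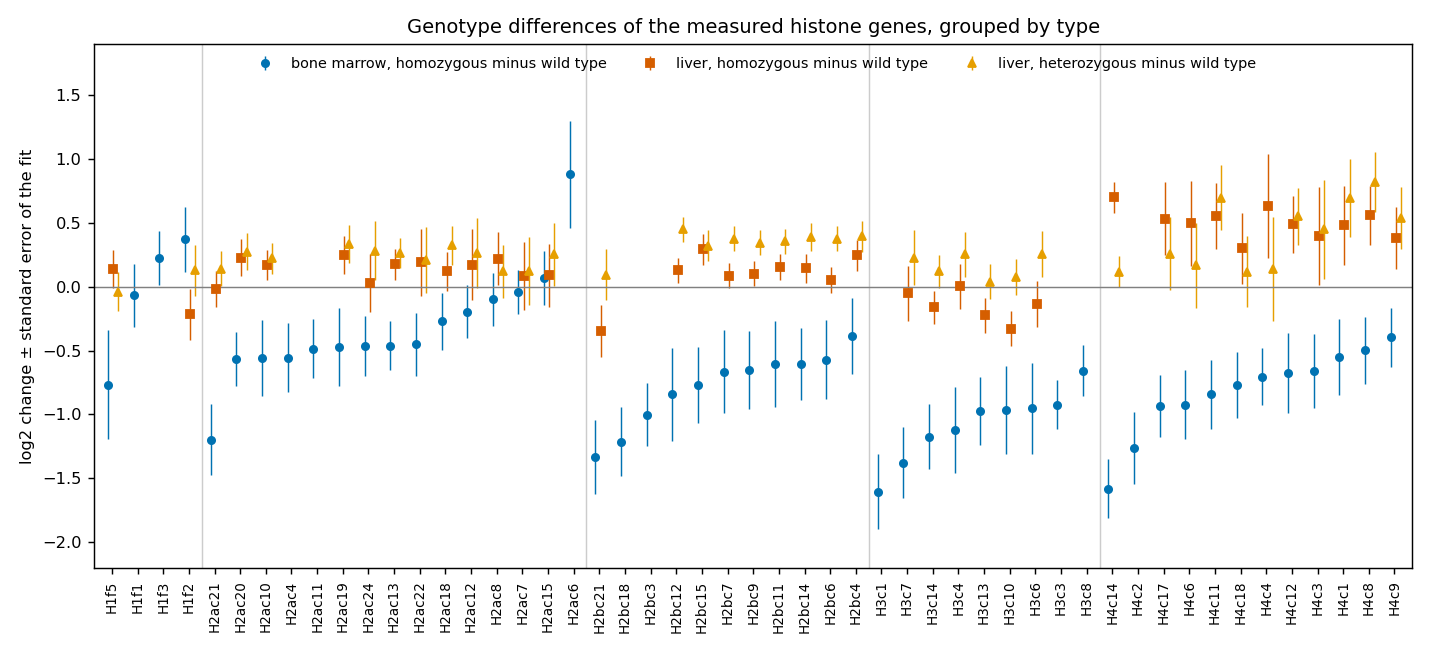
Log2 change with its standard error for every histone gene measured in marrow, grouped by type and ordered by the marrow change; circles are marrow homozygous minus wild type, squares liver homozygous minus wild type and triangles liver heterozygous minus wild type. Squares of the H4 genes all lie above 0 and their circles all lie below it, whereas 5 of the 6 H3 squares lie below 0.

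In brain no histone gene passed the threshold in any comparison. Over 39 measured genes the median was 0.00 for homozygous against wild type, 0.10 for heterozygous against wild type and -0.09 for homozygous against heterozygous, with 0 called by limma in each (0.00693%, 0% and 0.00693% of the 14423 features were called). At an unadjusted p under 0.05 there were 2, 3 and 1 genes, against 5.25%, 5.87% and 6.18% of all features. The spread was small, with changes between -0.21 and 0.30 in the first comparison. H4c18 had the smallest p for heterozygous against wild type (0.32 ± 0.11, limma adjusted p = 0.73) and H3c7 for homozygous against heterozygous (-0.43 ± 0.11, limma adjusted p = 0.67). With arrays scaled by their medians the first comparison gave -0.11 and the second -0.02, when all features had medians of -0.12 and -0.11.

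The opposite trends of liver and marrow were compared gene by gene. Of the 40 genes measured in both tissues, 31 had a positive homozygous-minus-wild-type change in liver and a negative one in marrow, 7 were negative in both, 1 was positive in both and 1 was negative in liver and positive in marrow. The 31 included all 11 H4 genes, 10 of 12 H2A genes and 8 of 9 H2B genes, but 1 of 6 H3 genes, as the other 5 H3 genes were negative in both tissues. For the H4 genes the medians were 0.50 in liver and -0.70 in marrow. Without marrow homozygous replicate 2 the counts over 39 genes were 30, 7, 1 and 1, with all 11 H4 genes and 1 of 6 H3 genes again among the first. The share of all features with each pair of signs is not given. Over all features the marrow median was also negative, at -0.19 without that array, so these counts are descriptions.

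The difference between tissues was tested as an interaction over all 27 arrays. The homozygous effect was higher in liver than in marrow for 20 of 51 genes and lower for 0, against 16.4% of all 16818 features called (8.93% higher and 7.42% lower), and the median difference was 0.78 against 0.08. The 20 comprised 9 H4, 6 H3, 4 H2B and 1 H2A genes. Of them, 6 had not passed the liver filter, and among the 37 genes measured in all tissues 13 were called. Without marrow homozygous replicate 2 the median difference was 0.53, and of 50 genes 21 were called higher and 2 lower, against 37.2% of all features. The number called was 13 without liver wild-type replicate 2 or marrow wild-type replicate 2, and 32 without marrow homozygous replicate 3. The share of all features called in those fits is not given.

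By p-value the first was H4c14, with a difference of 3.81 ± 0.29 (limma adjusted p = 7.1e-08): 0.92 in liver and -2.89 in marrow on the joint scale. The next 4 were H3c3 (2.24 ± 0.30), H3c8 (1.78 ± 0.29), H2bc18 (1.98 ± 0.37) and H3c1 (1.68 ± 0.36), with limma adjusted p = 6.9e-05, 0.00054, 0.0016 and 0.0047. Their liver changes lay between -0.16 and 0.14 and their marrow changes between -2.12 and -1.70. These 4 did not pass the liver filter, and H3c3 and H3c8 were detected on 0 of the marrow arrays labelled homozygous, so their values follow in part from the filter. Without marrow homozygous replicate 2 the 5 differences were 4.09, 2.51, 1.80, 1.60 and 1.34, in that order. The heterozygous effect differed between the tissues for 2 genes, H3c3 (1.61 ± 0.30, limma adjusted p = 0.0069) and H3c8 (1.19 ± 0.29, 0.034), against 2.01% of all features (1.37% higher and 0.642% lower). Both were undetected on every liver array and had passed through wild-type marrow, so a difference was built into their inclusion and its size is measured against undetected probes. Leaving out any 1 liver wild-type, liver heterozygous or marrow wild-type array, or marrow heterozygous replicate 2, brought the count to 1, and without marrow heterozygous replicate 3 it was 4.

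**Figure D4:**
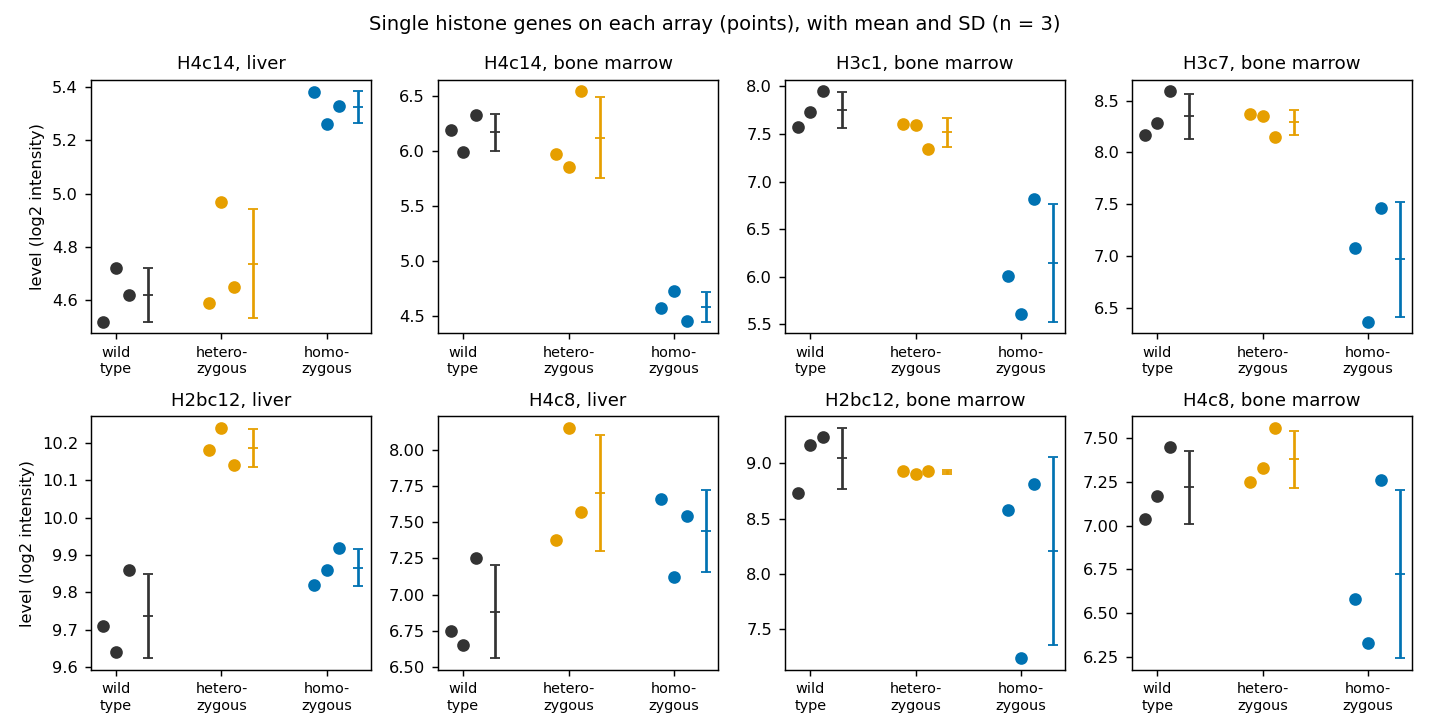
Level (log2 intensity) of 5 histone genes on each array by genotype, with the mean and SD of 3 arrays beside the points; each panel is 1 gene in 1 tissue and has its own axis, which does not start at 0. H4c14 lies at 5.26 to 5.38 in homozygous liver, above all other liver arrays, and at 4.46 to 4.73 in marrow labelled homozygous, below all other marrow arrays.

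How alike genes of 1 type were depended on the type and the tissue. After the group means were removed, the median correlation between genes over the 9 liver arrays was 0.82 among H3 genes and 0.82 among H4 genes, against 0.34 among H2B and 0.40 among H2A genes. In marrow it was 0.90 among H3, 0.83 among H2B, 0.84 between H2B and H3, 0.78 between H3 and H4, 0.54 among H4 and 0.11 among H2A genes. Over all 27 arrays the most alike pair was H2bc11 and H2bc7 (r = 0.98), followed by H2bc11 and H2bc6 (0.98) and H2bc12 and H2bc9 (0.97). The arrays share normalisation, and similar probes may read the same transcripts, so these are descriptions. The marrow values include homozygous replicate 2, the array with hepatocyte transcripts, and the liver values include heterozygous replicate 2, which stood out for H4. They are not given without these arrays, and the part of single arrays in them was not tested. Some H2A genes formed their own set in liver, picked here after their values were seen: H2ac7 read 9.23, 10.16 and 8.89 in homozygous liver and H2ac24 9.55, 10.41 and 9.47, both highest on replicate 2, while H2ac10 read 11.52, 11.67 and 11.53. Several probes passed for 14 genes in liver and 17 in marrow, and their signs disagreed for 0 and 3 of them in homozygous against wild type.

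By chromosome, marrow labelled homozygous had a median change of -1.17 for 9 genes on chromosome 3, all negative, and -0.63 for 42 genes on chromosome 13, of which 38 were negative. Without homozygous replicate 2 the medians were -0.88 for 9 genes and -0.35 for 40. In homozygous liver the medians were 0.05 for 8 genes and 0.17 for 32. The difference between chromosomes was not tested.

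Other genes of the same pathway gave a setting for these values. The share of all features with a negative change is not given beside the counts of signs below. In marrow labelled homozygous, 30 of 30 measured DNA replication genes were negative (median -0.60, 1 fell: Cdc6, which loads the replicative helicase, -1.43 ± 0.23, limma adjusted p = 0.024). All 12 mitosis genes (median -0.56) and all 8 replication-independent histone genes (median -0.48) were negative, with 0 called and 9 and 4 at an unadjusted p under 0.05, where 27.1% of all features were. Those lists on each homozygous array lay at -0.65, -0.41 and -0.80 for replication and -0.42, -0.54 and -0.63 for mitosis, so they did not share the low position of replicate 2 seen in H3 and H4. Of 12 genes for transcription and processing of histone mRNA, 8 were negative (median -0.24, 0 called, 3 at an unadjusted p under 0.05), and of 13 histone chaperone genes 10 were (median -0.32, 0 called, 0 at that p). By array the medians were -0.17, -0.03 and -0.49 for processing, -0.17, 0.03 and -0.46 for chaperones and -0.47, -0.39 and -0.75 for replication-independent histones.

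In homozygous liver the corresponding medians were -0.02 for 23 replication genes, -0.06 for 7 mitosis genes, 0.17 for 8 replication-independent histone genes and -0.10 for 13 processing genes, with 0 called in each list and 3, 0, 3 and 1 at an unadjusted p under 0.05, where 17.3% of all features were. Among 13 chaperone genes 1 rose, Nasp, which binds H3 and H4 (0.49 ± 0.10, limma adjusted p = 0.046). In heterozygous liver 0 genes of these lists were called, and the replication genes had a median of 0.00 where the histone genes had 0.26.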

How the data were processed

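Illumina BeadChip arrays measured transcripts of 3 mouse tissues at 3 Mysm1 genotypes (27 arrays, 9 groups of 3). The deposited files hold probe intensities without normalisation and a detection p-value per probe. A table of the authors' processed intensities, put on a log2 scale, served as an alternative. BeadStudio and limma are named in the submitters' processing notes, without versions. All 27 columns of values were matched to samples, and 0 columns belonged to other samples.

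Intensities were corrected and quantile normalised with neqc (limma 3.58.1, R 4.3.3, offset 16), separately per tissue and, for tissue comparisons, over all 27 arrays. Probes with 1 gene symbol (34885 of 45281) were grouped by gene. The 10378 with no symbol and the 18 with several were each a feature of their own. Probes were kept at a detection p below 0.05 on at least 3 arrays, with the probe of highest mean per gene. Comparisons used lmFit and eBayes, two-sided, with Benjamini-Hochberg adjustment over all features (threshold 0.05), all genotypes of a tissue sharing 1 estimate of spread. The script was tested on simulated data. With 3 arrays a group, the number of arrays limits precision. No arrays held identical values.

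Members and lists were chosen with earlier results of these data known. Genes named are up to 8 called members with the smallest p per comparison (otherwise 3), the highest member per type and tissue, the 5 smallest p in each direction between tissues, and the 3 highest and 3 lowest homozygous changes in liver and marrow; from other lists up to 3 with the smallest p. Alternatives covered the authors' table, background correction, scaling, filter, probe choice, array weights, groups fitted, replicate block and left-out arrays; the analysis without marrow homozygous replicate 2 by type was chosen after seeing the data. Equal replicate numbers were not treated as pairs in the main fits. Between genotypes of a tissue, 10 of 27 same-number correlations exceeded 0.1 (range -0.55 to 0.44). Between tissues of a genotype they ran from -0.12 to 0.088. These correlations cannot decide whether samples were paired. Promoters came from RefSeq (GRCm38.p6), and no genome was used.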

Additional observations from a re-analysis of the deposited data

Results flagged for a closer look

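For 20 histone genes the homozygous-minus-wild-type change differed between liver and marrow by the limma interaction test over all 27 arrays (adjusted p below 0.05), and for 2 of these the heterozygous change did so too. Values are liver minus marrow on the log2 scale. Among H4 genes the difference was 3.81 for H4c14, 2.12 for H4c2, 1.51 for H4c17, 1.44 for H4c11, 1.43 for H4c6, 1.42 for H4c4, 1.19 for H4c12, 1.09 for H4c18 and 1.07 for H4c8. Among H3 genes it was 2.24 for H3c3, 1.78 for H3c8, 1.68 for H3c1, 1.47 for H3c7, 1.15 for H3c4 and 1.05 for H3c14. Among H2B genes it was 1.98 for H2bc18, 1.23 for H2bc3, 1.13 for H2bc21 and 1.04 for H2bc15, and the H2A gene was H2ac21 at 1.26. In heterozygotes it was 1.61 for H3c3 and 1.19 for H3c8. In both tissues homozygous arrays lay on a chip of their own, so genotype and chip cannot be told apart.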

How the results depend on the processing

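Settings were run for the counts, the medians and the genes named first in each comparison, and no called gene among these changed direction. The median over the histone genes changed sign with median scaling for homozygous against heterozygous liver and in both brain comparisons with wild type. With 1 array left out it ran from -0.054 to 0.086 in homozygous against wild-type brain (0.002 in the main fit). The H1 median in homozygous against wild-type marrow went from 0.08 to -0.12 without homozygous replicate 2. The count of called histone genes was least stable. The counts that follow come without the share of all features called in each fit, so they show only how the calls moved. For homozygous against wild-type liver it was 0 with no background correction, with probes detected on every array, with a replicate block and without any 1 array (0 to 0). For homozygous against heterozygous liver it was 1 with array weights and 0 to 1 with 1 array left out. For homozygous against wild-type marrow it was 5 with no background correction, 32 with median scaling, 32 with array weights, 0 with only the groups compared, 0 with a replicate block and 0 to 20 with 1 array left out. For homozygous against heterozygous marrow it was 2 with no background correction, 0 with median scaling, 0 with detection on every array, 2 with the mean of a gene's probes, 18 with array weights, 0 with only the groups compared, 0 with a replicate block and 0 to 6 with 1 array left out. For heterozygous against wild-type marrow it was 3 with array weights. The homozygous difference between liver and marrow was called for 46 genes with median scaling, 5 with only the groups compared and 13 to 32 with 1 array left out. The heterozygous difference was called for 1 with the authors' table, 1 with no background correction, 0 with normalisation within tissues, 28 with median scaling, 0 with detection on every array, 6 with array weights, 1 with only the groups compared and 1 to 4 with 1 array left out. The replicate block changed no other count, and in the sample titles the samples share only a number.

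Median scaling moved the median change of the histone genes to 0.27 in homozygous liver, 0.046 for homozygous against heterozygous liver, -0.11 in homozygous brain, -0.021 in heterozygous brain, -2.10 in homozygous marrow, -1.43 in heterozygous marrow, and 2.47 and 1.57 for the homozygous and heterozygous differences between liver and marrow; the medians of all features were then 0.05, 0.16, -0.12, -0.11, -0.89, -0.88, 0.36 and 0.30. With no filter the homozygous liver median was 0.10, and with array weights the heterozygous tissue difference was 0.25. With 1 array left out the medians ranged from 0.048 to 0.17 in heterozygous brain, 0.53 to 1.00 for the homozygous and 0.25 to 0.41 for the heterozygous tissue difference. Wild-type marrow exceeded liver by 2.46 with the authors' table, 2.18 with no background correction, 1.54 with normalisation within tissues, 2.22 with median scaling, 3.15 with no filter, 3.84 with detection on every array, 3.10 with the mean of probes and 3.20 to 3.48 with 1 array left out. It exceeded brain by 3.15, 2.87, 1.75, 2.56, 3.79, 4.42 and 3.58 in the same settings, 3.79 with array weights and 3.78 to 3.99 with 1 array left out. The causes were not tested. Marrow arrays were dim, and the part of this in these shifts was not tested.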
